A study of Mus musculus with 2 samples.

Results

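The 10 genes described here encode proteins that promote or restrain passage through the cell cycle. They are the D-type cyclins Ccnd1, Ccnd2 and Ccnd3, the inhibitors of cyclin-dependent kinases Cdkn1a, Cdkn1b, Cdkn1c and Cdkn2c, and the growth arrest genes Gadd45a, Gadd45g and Btg2. They were taken by symbol, 10 of the 27998 genes in the count matrices. The data are droplet single-cell RNA counts of dissociated mouse pancreas at embryonic day 13.5, in which each captured transcript carries a unique molecular identifier (UMI). The library labelled knockout came from 1 embryo written Dpy30∆P in the series' design text, and the control library came from 1 control embryo, both of strain C57BL/6. Dpy30 is a subunit shared by the histone H3 methyltransferase complexes of the COMPASS type. The sources used here name neither the deleted part of Dpy30, nor the driver of the deletion, nor the alleles of the control embryo. With 1 library of 1 embryo per condition, genotype, embryo, sex and library cannot be told apart, and no difference between them could be tested.

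D-type cyclins bind Cdk4 and Cdk6 and start the phosphorylation of the retinoblastoma protein, which lets cells pass from G1 into S phase. The p21, p27 and p57 proteins of Cdkn1a, Cdkn1b and Cdkn1c block the cyclin-dependent kinases of this step, and the p18 protein of Cdkn2c binds Cdk4 and Cdk6 directly. In the embryonic pancreas, cells of the epithelial trunk that turn on the transcription factor Neurog3 at high level leave the cell cycle and become endocrine cells. Gadd45a and Gadd45g encode small stress-response proteins that restrain division, and Btg2 encodes an antiproliferative cofactor.

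In all, 3044 barcodes carried 28033433 UMIs in the library labelled knockout (median 8049 per barcode), against 3900 barcodes and 32702089 UMIs in the control library (median 6825.5). After filters and doublet removal, 2938 knockout-labelled and 3749 control cells remained, of which 468 and 748 were epithelial. Dpy30 was not lower in the library labelled knockout (267 against 220 CPM in trunk cells), and these 3' tags, which may lie outside the deleted part, do not check the label. CPM is a gene's summed UMIs per 1000000 UMIs of the class. The embryos were of opposite sex, with 58508 against 2 UMIs of Xist and 0 against 1847 of Ddx3y, and no gene described here lies on a sex chromosome. The libraries shared 22 barcodes. Along the endocrine path the cells were staged by UMIs of Neurog3 and of Chga, a granule protein of endocrine cells. Trunk cells without Neurog3 numbered 147 knockout-labelled and 249 control, cells with Neurog3 1 to 4 numbered 51 and 100, cells with Neurog3 of 5 or more numbered 56 and 127, and cells with Chga of 3 or more numbered 21 and 87. Tip cells, which carry acinar genes, numbered 191 and 176, and mesenchyme cells 2088 and 2581. The clusters behind these classes were computed without the 10 genes and named by marker lists that hold Spp1 and Cpa1. Levels of these markers, and of Neurog3 in cells gated on it, therefore describe the classes and do not check them. Spp1 stood at 2676 against 3554 CPM in trunk cells, Cpa1 at 1770 against 2996 CPM in tip cells, and Neurog3 at 2544 against 3511 CPM in the cells gated for it.

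The promoters of the genes that were highest in Neurog3-high cells are shown because Neurog3 belongs to the basic helix-loop-helix factors, which bind E-boxes (CANNTG). Each window runs from 250 bases before to 50 bases after the RefSeq start in GRCm38.p6, on the gene's own strand, with E-boxes in capitals.
Gadd45g, chr13:51846425-51846724, plus strand: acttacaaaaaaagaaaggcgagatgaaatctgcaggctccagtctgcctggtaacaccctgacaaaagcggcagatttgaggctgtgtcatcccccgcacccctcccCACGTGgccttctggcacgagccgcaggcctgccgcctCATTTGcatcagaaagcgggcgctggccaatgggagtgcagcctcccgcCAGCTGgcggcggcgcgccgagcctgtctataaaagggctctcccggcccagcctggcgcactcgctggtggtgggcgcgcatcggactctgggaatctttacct
Gadd45a, chr6:67037358-67037657, minus strand: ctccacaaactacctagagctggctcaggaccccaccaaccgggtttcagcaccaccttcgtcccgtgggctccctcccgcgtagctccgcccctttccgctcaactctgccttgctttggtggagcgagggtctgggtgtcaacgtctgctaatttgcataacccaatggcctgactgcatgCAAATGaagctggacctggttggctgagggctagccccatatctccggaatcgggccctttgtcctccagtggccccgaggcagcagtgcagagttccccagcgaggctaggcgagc
Cdkn1a, chr17:29090729-29091028, plus strand: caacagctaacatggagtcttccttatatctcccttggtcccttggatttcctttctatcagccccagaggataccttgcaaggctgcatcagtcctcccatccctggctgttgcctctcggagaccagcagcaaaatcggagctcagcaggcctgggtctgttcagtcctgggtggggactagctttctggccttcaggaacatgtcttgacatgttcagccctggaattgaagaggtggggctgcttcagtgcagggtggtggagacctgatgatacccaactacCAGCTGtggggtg
Cdkn1a, chr17:29093519-29093818, plus strand: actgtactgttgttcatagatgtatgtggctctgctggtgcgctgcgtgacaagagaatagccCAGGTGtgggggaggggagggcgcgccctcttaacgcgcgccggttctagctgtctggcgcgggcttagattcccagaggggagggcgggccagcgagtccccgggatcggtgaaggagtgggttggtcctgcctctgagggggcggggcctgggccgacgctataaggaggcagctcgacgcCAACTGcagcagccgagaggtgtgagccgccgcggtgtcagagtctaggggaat

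The Gadd45g window holds 3 E-boxes, CACGTG at 142, CATTTG at 104 and CAGCTG at 55 bases upstream of the start, with TATAAA at 27 bases upstream. The Gadd45a window holds CAAATG at 67 bases upstream. Of the Cdkn1a starts, the upstream window has CAGCTG 37 bases inside the transcript, and the downstream window has CAGGTG at 187 and CAACTG at 4 bases upstream. The Btg2 window has none. RefSeq windows were matched for 7 of the 10 genes, with 10 windows in all, of which 5 hold CANNTG on either strand. CANNTG occurs in 72.3% of all 32851 promoter windows of this length, and CAGCTG, a subset of it, in 16.3% and in 2 of these 10. CAGATG or CATCTG, the same word read on both strands and also a subset of CANNTG, occurs in 17.2% of all windows and in 0 of these 10. These matches describe letters and not binding.

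Along the endocrine path, Gadd45a, Cdkn1a, Gadd45g and Btg2 were at least 2-fold higher in Neurog3-high cells than in trunk cells in both libraries, and Ccnd1 and Ccnd2 were at least 2-fold lower. That was 4 higher and 2 lower of the 9 genes with at least 20 UMIs, where 4.92% of all 10700 genes tested were higher and 2.25% lower by the same rule. The remaining 3, Ccnd3, Cdkn1b and Cdkn1c, passed neither limit. Between Neurog3-high cells and the cells with Neurog3 1 to 4, the same 4 genes were higher (4 of 9, background 3.75%) and 0 of 9 lower (background 1.55%). All ratios are of CPM + 5, which understates the change of low genes. The stages compared within a library share its free RNA but differ in depth per cell. Median UMIs per cell were 13872 in trunk and 7398 in Chga cells of the knockout-labelled library, and 12934 and 7624 in the control library. In bulk sums of a class, fewer positive cells and fewer transcripts per cell cannot be told apart.

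**Figure D1:**
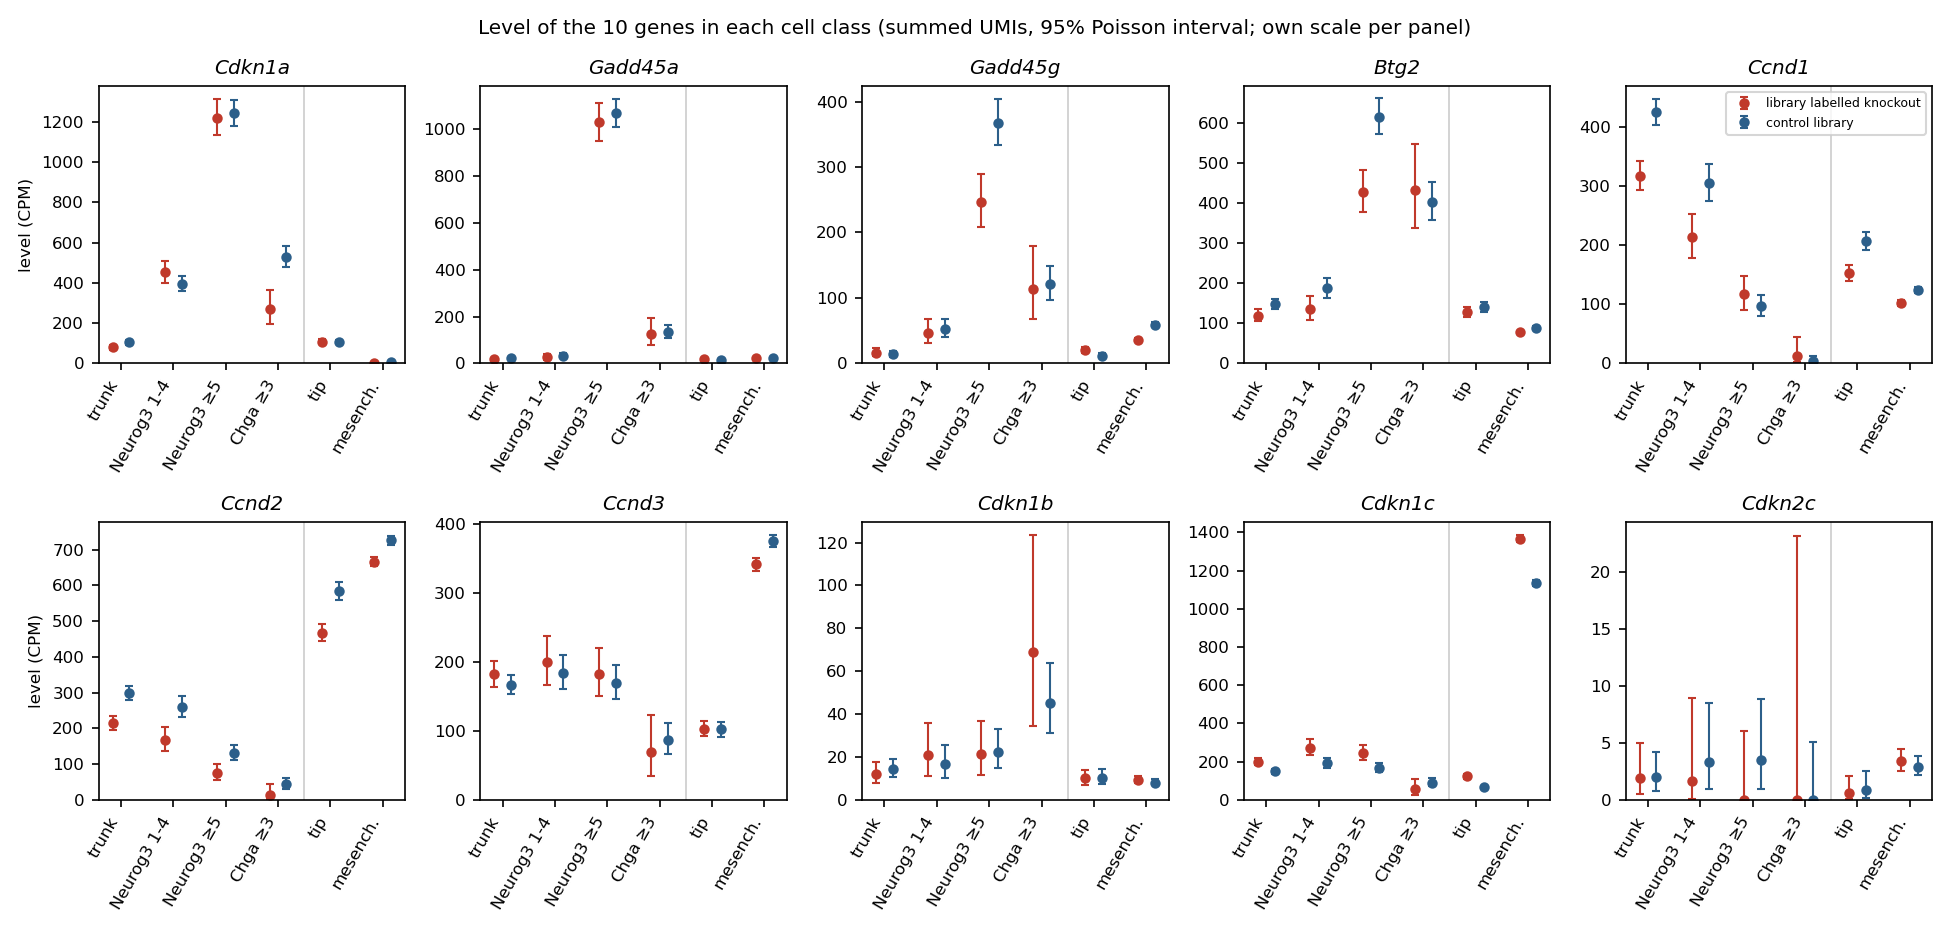
Level (CPM, y axis, own scale per panel) of each gene in the 6 cell classes (x axis; endocrine stages left of the grey line), knockout-labelled library in red and control library in blue, with 95% Poisson intervals. Cdkn1a, Gadd45a, Gadd45g and Btg2 stand highest or next to highest at Neurog3 of 5 or more, whereas Ccnd1 and Ccnd2 fall along the 4 stages.

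Cdkn1a (ENSMUSG00000023067, chromosome 17, 29090976 to 29100727, plus strand, GRCm38) encodes p21. Its level over the 4 stages was 78.7, 452, 1223 and 269.8 CPM in the knockout-labelled library and 104, 397, 1245 and 529.7 CPM in the control library. In both libraries it was highest in Neurog3-high cells and lower in Chga cells. The log2 ratio of Neurog3-high over trunk cells was 3.87 (counting interval 3.64 to 4.11) in the knockout-labelled library and 3.52 (3.36 to 3.68) in the control library. Cdkn1a was already higher in cells with Neurog3 1 to 4 than in trunk cells (log2 ratio 2.45 knockout-labelled, 1.89 control), as was Gadd45g (1.27 knockout-labelled, 1.61 control), and these were 2 of 9 genes at a background of 0.39% of 10511, with 0 of 9 lower at a background of 0.0856%. The Gadd45g call rests on 1 knockout-labelled cell, which held 14 of the 29 UMIs. Without that cell Gadd45g stood at 24.4 CPM there, against 16.4 CPM in knockout-labelled trunk cells, short of 2-fold. After thinning to 3000 UMIs per cell, a Cdkn1a UMI was seen in 24 of 147, 27 of 51, 43 of 55 and 11 of 21 knockout-labelled cells and in 63 of 247, 46 of 98, 109 of 127 and 39 of 85 control cells of the 4 stages. In erythroid barcodes, which should lack it, 1 of 37 knockout-labelled and 0 of 32 control carried Cdkn1a (2.70% and 0%, upper bound 10.9%) at median depths of 12417 and 6430.5 UMIs. Mesenchyme was nearly free of it, with 1.39 against 3.99 CPM, from 22 and 67 UMIs.

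Gadd45a (ENSMUSG00000036390, chromosome 6, 67035096 to 67037457, minus strand) had the steepest stage difference of the 10 genes. Over the 4 stages it stood at 16.9, 25.7, 1031 and 125 CPM in the knockout-labelled library and at 22.8, 31.6, 1068 and 133 CPM in the control library. The log2 ratio of Neurog3-high over trunk cells was 5.56 (5.18 to 5.95) in the knockout-labelled library and 5.27 (5.00 to 5.54) in the control library. The trunk levels did not stand above those of erythroid barcodes, 17.0 knockout-labelled and 29.6 control CPM. Whether those erythroid UMIs are free RNA or the barcodes' own transcripts was not tested. The part of background RNA in the starting level is therefore not known. In Neurog3-high cells 627 knockout-labelled and 1236 control UMIs were spread over 42 of 56 and 108 of 127 cells. In Chga cells it was lower again, by a log2 ratio of -2.99 in the knockout-labelled library and -2.96 in the control library against the Neurog3-high cells.

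Gadd45g (ENSMUSG00000021453, chromosome 13, 51846678 to 51848468, plus strand) followed the same order at lower counts. Its stages read 16.4, 46.6, 247 and 113 CPM in the knockout-labelled library and 13.9, 52.4, 367 and 121 CPM in the control library. Neurog3-high over trunk gave log2 ratios of 3.55 (3.12 to 3.99) in the knockout-labelled library and 4.30 (3.97 to 4.63) in the control library. Btg2 (ENSMUSG00000020423, chromosome 1, 134075170 to 134079120, minus strand) was expressed in every epithelial stage, with 119, 135.1, 427 and 433 CPM in the knockout-labelled library and 148, 187, 615 and 403 CPM in the control library. Neurog3-high over trunk gave 1.80 (1.56 to 2.05) in the knockout-labelled library and 2.02 (1.86 to 2.18) in the control library. Btg2 did not pass 2-fold between Neurog3-high and Chga cells, where its log2 ratio to Neurog3-high cells was 0.02 (-0.36 to 0.40) in the knockout-labelled library and -0.60 (-0.80 to -0.41) in the control library. After thinning, Btg2 was seen in 15 of 21 knockout-labelled and 63 of 85 control Chga cells.

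The cyclins went the other way. Ccnd1 (ENSMUSG00000070348, chromosome 7, 144929931 to 144939925, minus strand), the D-type cyclin most responsive to growth factor signals, stood at 318, 214, 117 and 12.5 CPM over the 4 stages in the knockout-labelled library and at 425, 305, 96.8 and 4.12 CPM in the control library. The last stage rests on 2 knockout-labelled and 3 control UMIs, and erythroid barcodes stood at 6.37 knockout-labelled and 16.9 control CPM. Neurog3-high over trunk gave log2 ratios of -1.41 (-1.75 to -1.07) in the knockout-labelled library and -2.08 (-2.34 to -1.82) in the control library. Ccnd2 (ENSMUSG00000000184, chromosome 6, 127125162 to 127152193, minus strand) read 214, 167, 75.6 and 12.5 CPM in the knockout-labelled library and 298, 259.6, 131 and 43.9 CPM in the control library, with log2 ratios of -1.44 (-1.85 to -1.03) knockout-labelled and -1.15 (-1.39 to -0.92) control. The Ccnd2 call was lost with marker gates, with Neurog3 of at least 3 as the high stage and with tip-like cells staged too. A cell's UMI from Ccnd1 or Ccnd2 was seen after thinning in 104 of 147, 28 of 51, 14 of 55 and 2 of 21 knockout-labelled cells and in 200 of 247, 64 of 98, 33 of 127 and 7 of 85 control cells. Cells with a UMI of Cdkn1a and of either cyclin made up 9.52%, 23.5%, 18.2% and 0% of the stages in the knockout-labelled library and 19.8%, 26.5%, 24.4% and 3.53% in the control library. In both libraries the share with both was larger in the Neurog3 stages than among Chga cells.

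Ccnd3 (ENSMUSG00000034165, chromosome 17, 47505051 to 47599691, plus strand) did not follow the other D-type cyclins. It read 182, 199, 182 and 69.0 CPM in the knockout-labelled library and 166, 184, 169 and 86.4 CPM in the control library, with a Neurog3-high over trunk log2 ratio of 0.01 (-0.29 to 0.30) knockout-labelled and 0.02 (-0.20 to 0.25) control. The interval bounds lie within 1.5-fold of no difference. The step to Chga cells was -1.34 (-2.18 to -0.50) knockout-labelled and -0.93 (-1.32 to -0.54) control, past 2-fold in the knockout-labelled library alone, on 11 UMIs.

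Among the other inhibitors, Cdkn1b (ENSMUSG00000003031, chromosome 6, 134920401 to 134925513, plus strand), the p27 gene of many resting cells, was highest in Chga cells. It stood at 12.1, 20.9, 21.4 and 69.0 CPM in the knockout-labelled library and at 14.4, 16.6, 22.5 and 45.3 CPM in the control library. Chga over Neurog3-high cells gave log2 ratios of 1.49 (0.47 to 2.51) knockout-labelled and 0.87 (0.24 to 1.51) control, from 11 and 33 UMIs in the Chga cells, so it missed the 2-fold limit in the control library. Cdkn1c (ENSMUSG00000037664, chromosome 7, 143458339 to 143461050, minus strand), the imprinted p57 gene, read 199, 272, 247 and 56.5 CPM in the knockout-labelled library and 148, 191, 166 and 90.6 CPM in the control library. Cdkn2c (ENSMUSG00000028551, chromosome 4, 109660876 to 109667189, minus strand) was at or under 3.46 CPM in all 12 sums. It had 0 UMIs in Neurog3-high and Chga cells of the knockout-labelled library, where 3 counts would be 4.93 and 18.8 CPM, so no stage pattern was detectable at this depth.

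From Neurog3-high to Chga cells, 5 of 9 genes were at least 2-fold lower in both libraries and 0 of 9 were higher, where 6.15% of 8774 genes were lower and 6.14% higher. The 5 were Ccnd1, Ccnd2, Cdkn1a, Gadd45a and Gadd45g. Among the 87 control Chga cells, 1 cell held 99 of the 386 Cdkn1a UMIs, and without it the class stood at 402 CPM. Without its own highest cell the knockout-labelled class stood at 178 CPM. Chga cells that still carried 5 or more Neurog3 UMIs had 164 CPM of Cdkn1a in 3 knockout-labelled cells (4 UMIs) and 1138 CPM in 14 control cells, those with 1 to 4 had 1224 CPM in 2 knockout-labelled cells (18 UMIs) and 306 CPM in 16 control cells, and those without Neurog3 had 175 CPM in 16 knockout-labelled and 402 CPM in 57 control cells. In the control library Cdkn1a was highest in the Chga cells with 5 or more Neurog3 UMIs. Its Poisson interval there was 969 to 1329 CPM, against 213 to 425 CPM at 1 to 4 and 347 to 463 CPM at 0. The control cell with 99 Cdkn1a UMIs was not left out of these groups, and its group was not looked up. The groups held 161 UMIs at 5 or more, 35 at 1 to 4 and 190 at 0. It may be in the first, so the order of 5 or more over 0 may rest on 1 cell. The Poisson intervals do not cover this. The knockout-labelled Chga cells with Neurog3 were too few to order.

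Splitting the cells more finely by Neurog3 UMIs, into ranges chosen after the data had been seen, separated Cdkn1a from Gadd45a. From 0 through 1, 2 to 4, 5 to 14, 15 to 39 and 40 or more Neurog3 UMIs, Cdkn1a read 78.7, 237, 760.2, 874, 1297 and 1642 CPM in the knockout-labelled library and 104, 291, 576, 1005, 1533 and 1170.2 CPM in the control library. In the control library Cdkn1a was lower at 40 or more (interval 1070 to 1277 CPM) than at 15 to 39 (1412 to 1660 CPM). Gadd45a read 16.9, 13.6, 43.1, 110.4, 1302 and 2016 CPM in the knockout-labelled library. In the control library Gadd45a read 22.8, 34.4, 26.9, 246, 1032 and 1749 CPM. At 2 to 4 Neurog3 UMIs, Cdkn1a was therefore well above its level at 0 in both libraries, whereas the intervals of Gadd45a at 2 to 4 and at 0 overlapped in both libraries. For Gadd45a they ran from 21.5 to 77.1 CPM at 2 to 4, on 11 UMIs, and from 11.8 to 23.5 CPM at 0 in the knockout-labelled library. In the control library they ran from 13.9 to 47.0 CPM, on 12 UMIs, and from 18.1 to 28.4 CPM. The ranges held 14 to 30 knockout-labelled and 34 to 60 control cells above 0. Their median depth was 9433 knockout-labelled and 8966 control UMIs at the top, against 13872 and 12934 at 0, so a cell's range also depends on its depth.

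Gadd45g and Btg2 lay between these patterns. Gadd45g read 16.4, 10.9, 98.0, 97.1, 336 and 334 CPM in the knockout-labelled library and 13.9, 37.1, 78.4, 237, 381 and 458 CPM in the control library. At 2 to 4 Neurog3 UMIs, 1 cell held 14 of the 25 knockout-labelled Gadd45g UMIs. Btg2 read 119, 109, 172, 247, 468 and 640.3 CPM in the knockout-labelled library and 148, 155, 242, 462, 569.6 and 778 CPM in the control library. Ccnd1 read 318, 240.1, 176, 234, 51.0 and 40.9 CPM in the knockout-labelled library and 425, 335, 256, 178, 86.8 and 42.0 CPM in the control library, so that its largest step came between 5 to 14 and 15 to 39 Neurog3 UMIs in the knockout-labelled library.

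**Figure D2:**
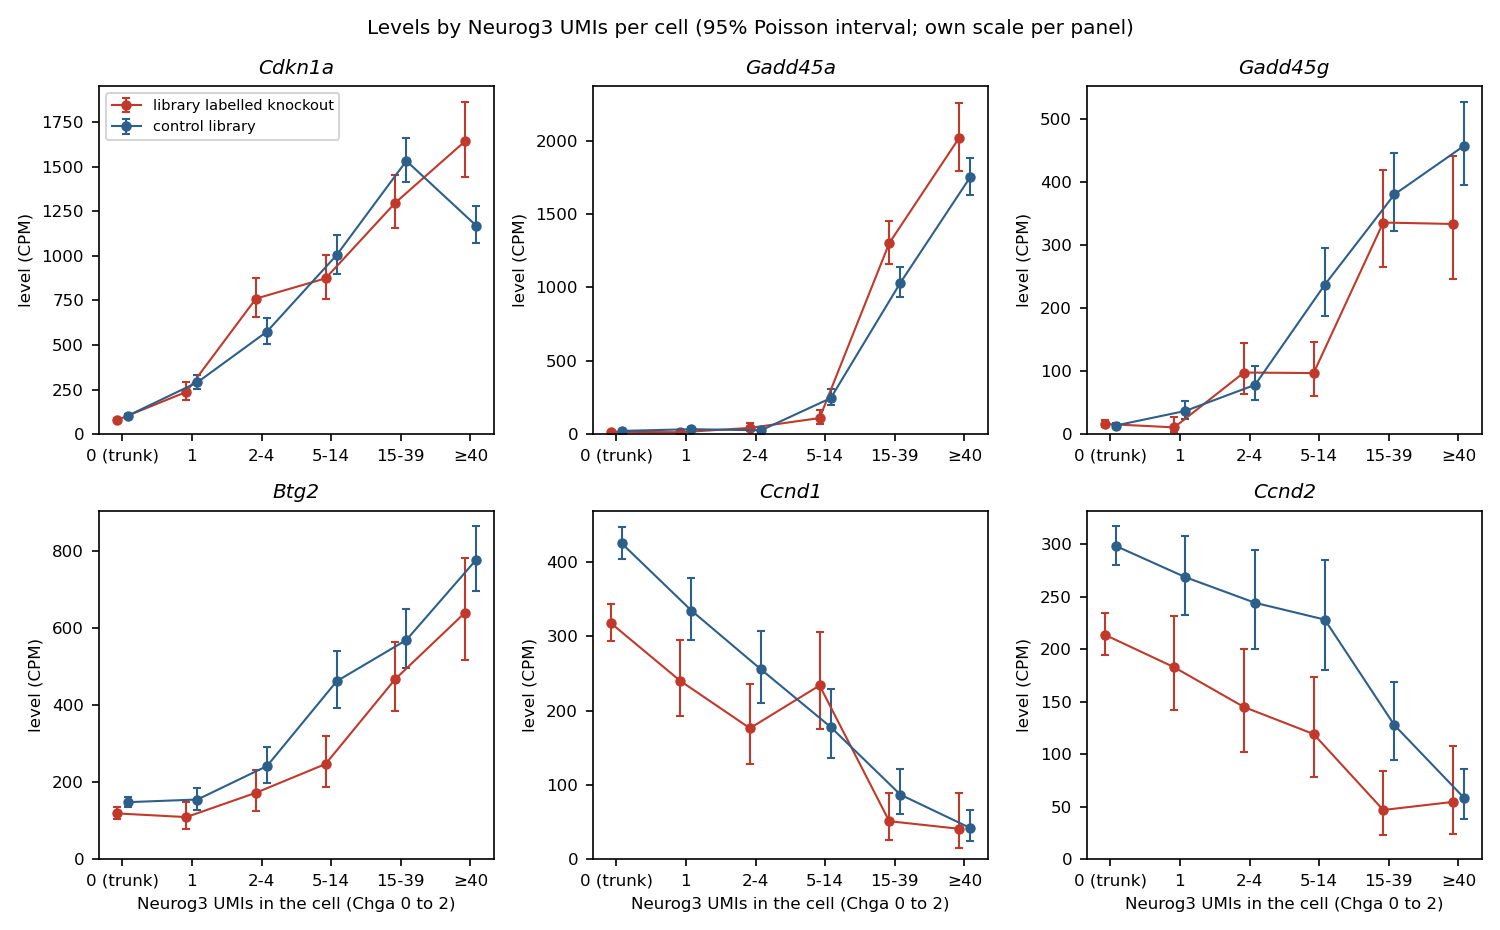
Level (CPM, y axis, own scale per panel) by the number of Neurog3 UMIs in the cell (x axis, cells with Chga 0 to 2) for 6 genes, knockout-labelled library in red and control library in blue, with 95% Poisson intervals. Cdkn1a climbs from the lowest Neurog3 counts, Gadd45a is at or under 246 CPM below 15 Neurog3 UMIs, and both cyclins decline.

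The 4 stages differed in mitotic cells, given as cells with at least 3 UMIs summed over Mki67, Top2a, Ccnb1, Cdk1 and Ube2c. Their share was 50.3%, 25.5%, 16.1% and 0 of 21 cells (upper bound 16.1%) in the knockout-labelled library and 57.8%, 43.0%, 15.0% and 0 of 87 cells (upper bound 4.15%) in the control library. This cut was not adjusted for depth, which differed between the stages. After thinning, a UMI of these genes was seen in 46.3%, 27.5%, 25.5% and 14.3% of knockout-labelled cells of the 4 stages. In the control library the thinned shares were 55.1%, 49.0%, 22.8% and 8.24%. The thinned knockout-labelled shares of both Neurog3 stages thus lay close together. Among trunk cells, Ccnd2 was lower in mitotic cells than in cells without a mitotic UMI in both libraries, at 149 against 259.0 CPM in the knockout-labelled library and 223 against 445 CPM in the control library. Ccnd1 was not, at 346 against 278 CPM in the knockout-labelled library and 424 against 415 CPM in the control library.

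Within Neurog3-high cells the mitotic cells held more Ccnd1 and less Cdkn1a, Gadd45a and Btg2 than cells without a mitotic UMI. The 15 knockout-labelled and 27 control cells between these limits were left out. Ccnd1 stood at 261 CPM in 9 mitotic knockout-labelled cells and 49.1 CPM in 32 without a mitotic UMI. In the control library it stood at 146 CPM in 19 mitotic cells and 62.0 CPM in 81 without a mitotic UMI. The log2 ratios were 2.30 (1.48 to 3.11) knockout-labelled and 1.18 (0.57 to 1.78) control. Cdkn1a stood at 756 against 1402 CPM in the knockout-labelled library and 924 against 1382 CPM in the control library. Gadd45a stood at 489 against 1329 CPM in the knockout-labelled library and 258 against 1396 CPM in the control library. Btg2 stood at 169 against 480.3 CPM in the knockout-labelled library and 289 against 731 CPM in the control library. Cdkn1c went with Ccnd1 here, at 378 against 193 CPM in the knockout-labelled library and 223 against 133 CPM in the control library. Ccnd2 was not lower in mitotic cells here, unlike in trunk cells. It stood at 78.2 against 59.6 CPM knockout-labelled, a log2 ratio of 0.37 (-0.63 to 1.36). In the control library it stood at 185 against 72.8 CPM, a log2 ratio of 1.29 (0.73 to 1.84). The mitotic cells were deeper, with medians of 18756 against 9309 UMIs in the knockout-labelled library and 13968 against 8175 UMIs in the control library, and the part of depth in these ratios was not tested.

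**Figure D3:**
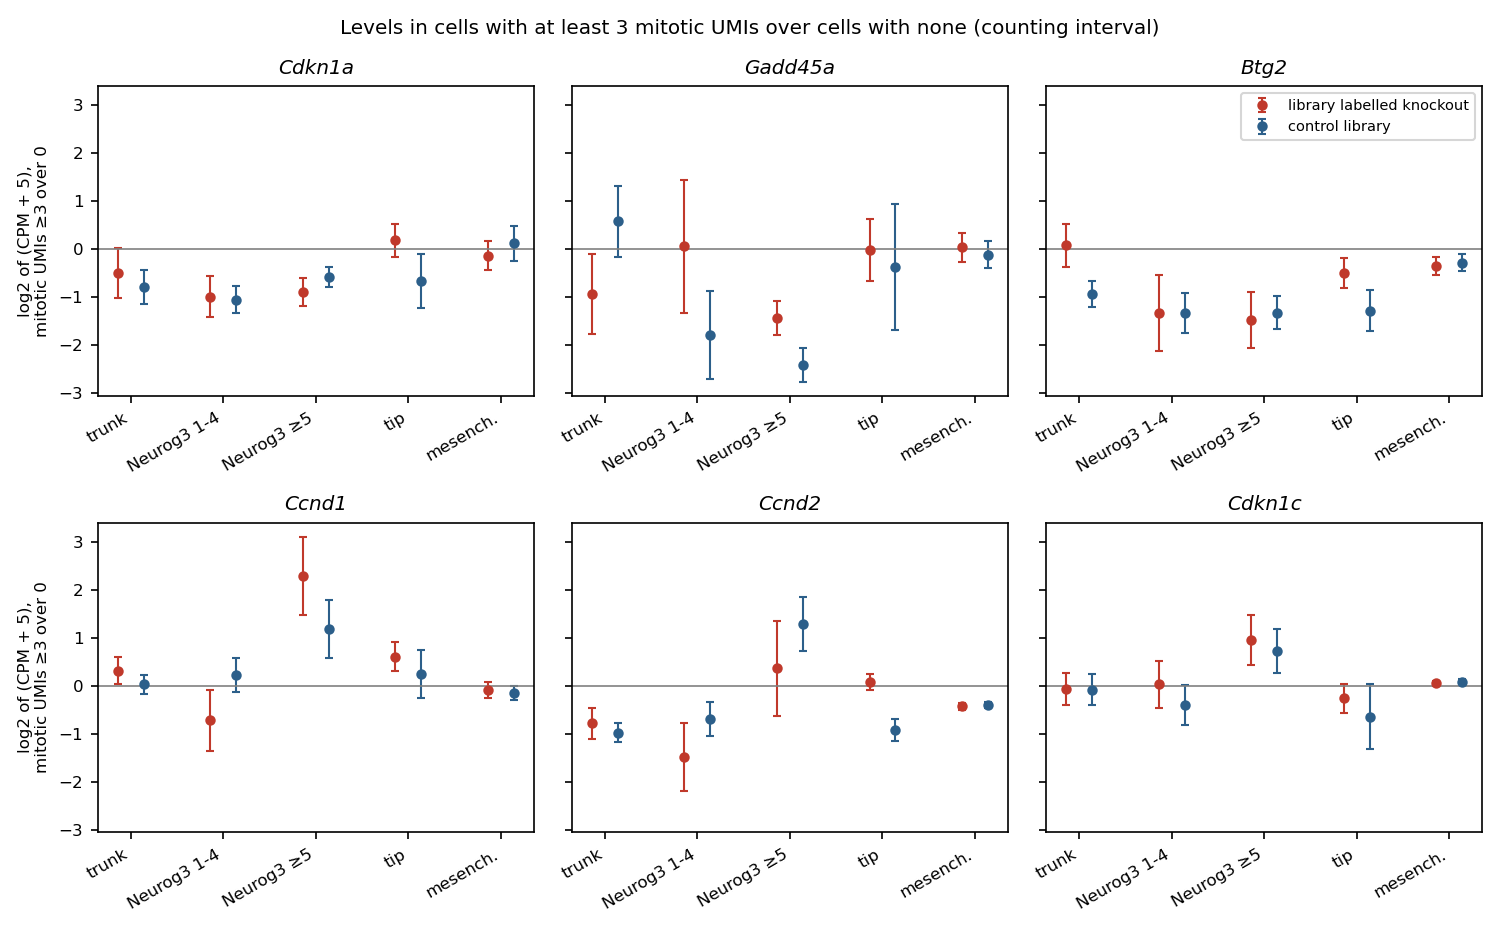
Log2 ratio of CPM + 5 (y axis) in cells with at least 3 mitotic UMIs over cells with none, by cell class (x axis), knockout-labelled library in red and control library in blue, with counting intervals. In Neurog3-high cells Cdkn1a, Gadd45a and Btg2 lie below 0 and Ccnd1 and Cdkn1c above 0 in both libraries.

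Outside the endocrine path, tip cells differed from trunk cells in Ccnd1, and mesenchyme differed in Ccnd1, Ccnd2, Cdkn1a and Cdkn1c. Ccnd1 was the only gene past 2-fold in tip over trunk cells in both libraries (1 of 9 lower at a background of 1.8% of 11170, and 0 of 9 higher at 1.15%). It stood at 152 CPM in tip cells and 318 CPM in trunk cells of the knockout-labelled library, and at 207 and 425 CPM in the control library. Ccnd2 stood at 468 CPM in tip and 214 CPM in trunk cells of the knockout-labelled library, and at 584 and 298 CPM in the control library. Its log2 ratios of 1.11 (0.96 to 1.26) knockout-labelled and 0.96 (0.85 to 1.06) control straddled the limit.

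In mesenchyme, Cdkn1c and Ccnd2 were at least 2-fold higher and Cdkn1a and Ccnd1 at least 2-fold lower than in trunk cells (2 higher at a background of 6.52% and 2 lower at 6.8% of 13433). Cdkn1c stood at 1366 CPM in knockout-labelled and 1135 CPM in control mesenchyme, with a UMI in 99.5% and 98.7% of cells. Ccnd2 stood at 666 against 726 CPM, Ccnd3 at 341 against 375 CPM and Ccnd1 at 102 against 124 CPM. Mesenchyme was therefore the class with the most Cdkn1c, Ccnd2 and Ccnd3 in both libraries. Cdkn1c UMIs also appeared in 8 of 37 knockout-labelled and 5 of 32 control erythroid barcodes (21.6% and 15.6%), at 74.3 and 33.9 CPM. The Chga cells of the knockout-labelled library, at 56.5 CPM, were below the erythroid level of their own library, while those of the control library, at 90.6 CPM, were above theirs.

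Between the libraries, most gene and class pairs lay within 1.5-fold. Of 54 pairs with at least 20 UMIs over both libraries, 2 were at least 1.5-fold higher in the library labelled knockout, 6 were lower and 46 were neither. In trunk cells 0 of 9 genes were higher (background 2.52% of 9924 genes tested) and 0 lower (background 2.42%). In cells with Neurog3 1 to 4, 0 of 9 were higher (7.5% of 7431) and 1 lower (7.71%), and in Neurog3-high cells 0 of 9 were higher (7.01% of 7329) and 1 lower (6.82%). In Chga cells 0 of 8 were higher (10.6% of 5501) and 3 lower (15.9%). In tip cells 2 of 9 were higher (3.24% of 9884) and 0 lower (2.36%), and in mesenchyme 0 of 10 were higher (0.501% of 12777) and 1 lower (0.83%). Either way, the background was 4.94% in trunk, 15.2% in Neurog3 1 to 4, 13.8% in Neurog3-high, 26.5% in Chga, 5.59% in tip and 1.33% in mesenchyme cells. The shares in the trunk and both Neurog3 classes do not stand above these backgrounds, and 3 of 8 in Chga cells is a small count. The median log2 ratio of the genes was -0.31 in trunk, -0.15 in Neurog3 1 to 4, -0.05 in Neurog3-high, -0.20 in Chga, 0.01 in tip and -0.15 in mesenchyme cells, against 0.02, 0.01, 0.01, -0.04, 0.04 and -0.01 over all genes tested. Just past the limit were Gadd45g in tip cells (1.51-fold) and Ccnd2 at Neurog3 1 to 4 (0.651-fold). Just short of it were Cdkn1c (1.47-fold) and Gadd45g (0.676-fold) in Neurog3-high cells and Cdkn1b in Chga cells (1.47-fold, on 11 against 33 UMIs).

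**Figure D4:**
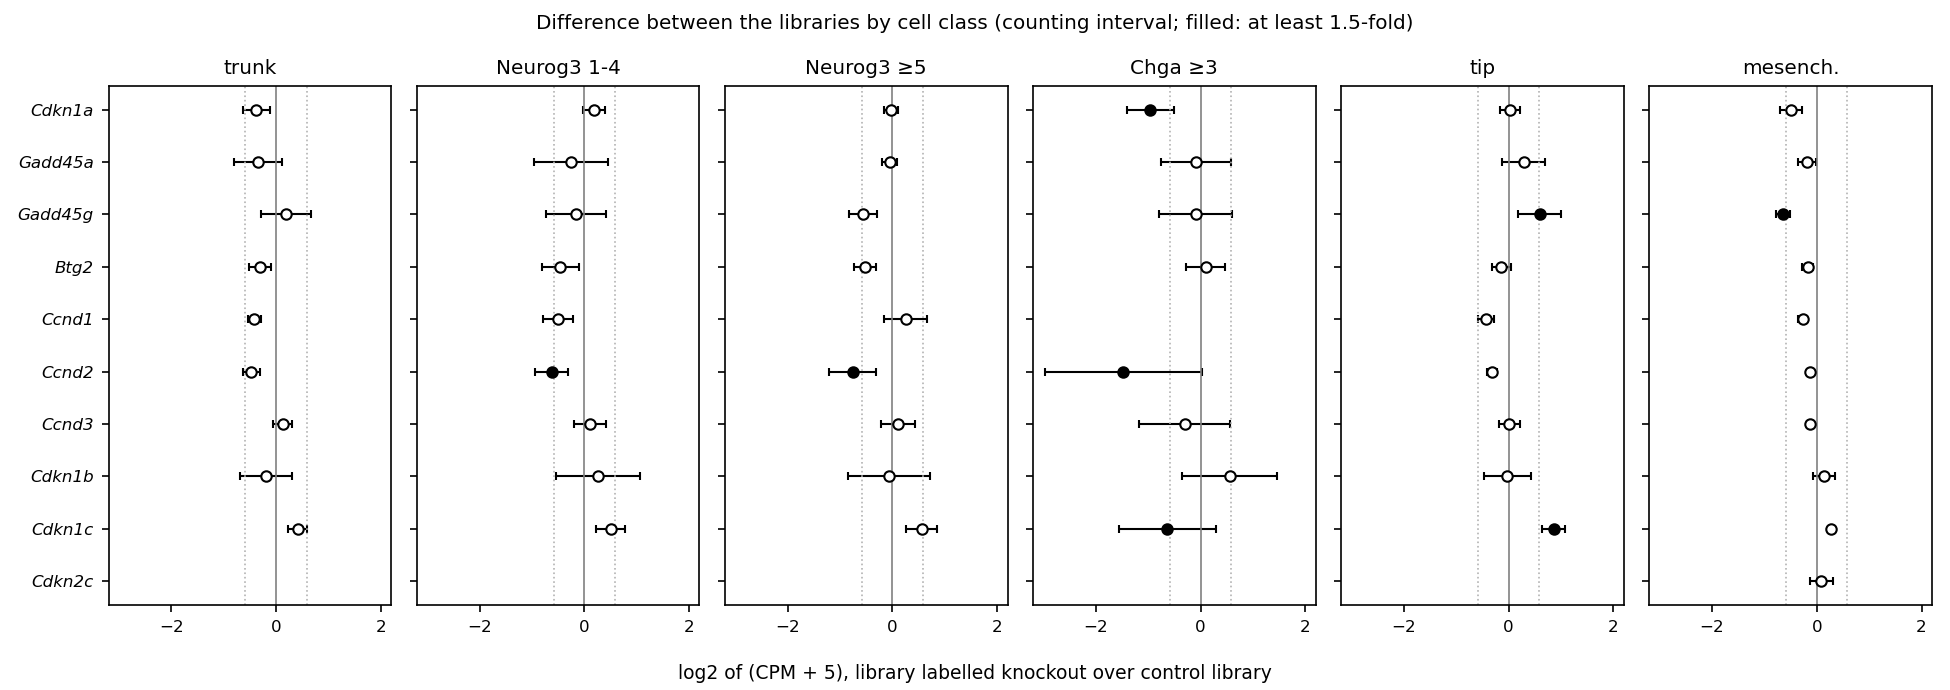
Log2 ratio of CPM + 5 of the library labelled knockout over the control library (x axis) for each gene (rows) in the 6 cell classes (panels), with counting intervals. Filled points are at least 1.5-fold (dotted lines) and genes under 20 UMIs are not drawn; Ccnd2 lies left of 0 in all 6 classes and Cdkn1c right of 0 in 5 of 6.

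Ccnd2 was lower in the library labelled knockout in 6 of 6 classes, with a counting interval below 0 in 5. Its log2 ratios along the stages were -0.47 (-0.63 to -0.31), -0.62 (-0.93 to -0.31), -0.76 (-1.21 to -0.31) and -1.48 (-2.98 to 0.02). The last value compares 2 with 32 UMIs and its interval reaches 0. Of 24 alternative settings, 4 took the Neurog3 1 to 4 ratio short of 1.5-fold (-0.46 with marker gates) and 2 the Neurog3-high ratio (-0.38 with tip-like cells staged too). The Chga ratio was -0.12 with stages set on thinned counts. In tip cells the ratio was -0.32 (-0.41 to -0.22) and in mesenchyme -0.12 (-0.16 to -0.09). Ccnd1 was lower in 4 of 5 classes, with log2 ratios of -0.41 in trunk, -0.50 in Neurog3 1 to 4, -0.43 in tip and -0.27 in mesenchyme cells, none past 1.5-fold, and stood at 0.26 (-0.15 to 0.67) in Neurog3-high cells. Btg2 had an interval below 0 in 4 of 6 classes, with -0.52 (-0.72 to -0.32) in Neurog3-high cells. Genes of the G2 and M phases were also lower in knockout-labelled epithelium outside the later stages, with summed list levels of 5560.2 against 7480 CPM in trunk, 4780 against 7081 CPM in Neurog3 1 to 4 and 4158 against 6933 CPM in tip cells. In Neurog3-high cells the list stood at 4229 against 4188 CPM. Their part in the cyclin ratios was not tested.

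Cdkn1c was higher in the library labelled knockout in 5 of 6 classes, each with an interval above 0. In tip cells it stood at 122 against 65.1 CPM, from 424 and 227 UMIs, a log2 ratio of 0.86 (0.64 to 1.08), which was 0.34 with no doublet removal. The ratios were 0.42 in trunk, 0.50 in Neurog3 1 to 4, 0.56 in Neurog3-high and 0.27 in mesenchyme cells, and -0.64 (-1.56 to 0.29) in Chga cells on 9 and 66 UMIs, where it was 0.01 with marker gates. The tip cells of the libraries were spread unevenly over the tip clusters. Cluster 10, led by Vtn, Reg1 and Ptf1a, held 81 knockout-labelled cells and 1 control cell, cluster 11 held 33 and 11, cluster 4 held 54 and 91, and cluster 7 held 23 and 73. Cluster 10 was therefore almost wholly of the knockout-labelled library, and cluster 11 mostly. In clusters 4, 7 and 11 Cdkn1c stood at 119, 127 and 114 CPM in knockout-labelled cells, against 67.9, 59.4 and 69.7 CPM in control cells, and it stood at 126 CPM in the knockout-labelled cells of cluster 10. Cdkn1c was also higher in knockout-labelled mesenchyme and erythroid barcodes. Collagen UMIs in tip cells stood at 1.46% of the mesenchymal level in the knockout-labelled library and 1.91% in the control library. After subtracting a mesenchymal profile in that proportion, tip Cdkn1c stood at 102 against 43.4 CPM.

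Gadd45g differed in opposite directions in tip cells and mesenchyme, with counting intervals clear of 0 in both. In tip cells it stood at 19.9 against 11.5 CPM, from 69 and 40 UMIs, a log2 ratio of 0.59 (0.18 to 1.01), and in mesenchyme at 36.2 against 59.2 CPM, from 574 and 995 UMIs, a ratio of -0.64 (-0.77 to -0.51). In Neurog3-high cells its log2 ratio was -0.57 (-0.83 to -0.30). With no doublet removal the tip ratio was -0.01. In tip cells 1 knockout-labelled cell held 14 of the 69 UMIs. Without that cell knockout-labelled tip cells stood at 16.0 CPM of Gadd45g, short of 1.5-fold over the control library. Cluster by cluster, the tip levels were 19.1, 9.81 and 24.0 CPM in knockout-labelled cells of clusters 4, 7 and 11, against 9.97, 14.7 and 6.97 CPM in control cells, so that cluster 7 went the other way. Erythroid barcodes stood at 8.49 knockout-labelled and 8.47 control CPM of Gadd45g, on 4 and 2 UMIs. The knockout-labelled tip level (interval 15.5 to 25.1 CPM) was above that value, and the control tip level (8.19 to 15.6 CPM) was close to it. With so few erythroid UMIs the part of background RNA in the tip levels is not known. Cdkn1a differed in Chga cells, at 269.8 against 529.7 CPM, a log2 ratio of -0.96 (-1.41 to -0.51), which was 0.51 with Chga of at least 1 as the gate. In Neurog3-high cells, where both genes were highest, Cdkn1a and Gadd45a had ratios of -0.03 (-0.15 to 0.10) and -0.05 (-0.19 to 0.09), bounds well within 1.5-fold.

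Other genes of the pathway, from lists written beside these 10, were compared over the same stages. In Neurog3-high over trunk cells 4.92% of all genes tested were at least 2-fold higher and 2.25% lower, and in Chga over Neurog3-high cells 6.14% were higher and 6.15% lower. Of 6 kinases and retinoblastoma family genes of G1, 0 passed 2-fold in both libraries in Neurog3-high over trunk cells. The retinoblastoma gene Rb1 stood at log2 ratios of 0.26 knockout-labelled and 0.50 control. Its relative Rbl1 stood at -1.04 knockout-labelled and -0.75 control. From Neurog3-high to Chga cells, 3 of 4 were lower, namely Cdk4 (-1.10 knockout-labelled, -1.31 control), Cdk6 (-1.68 knockout-labelled, -1.95 control) and Cdk2 (-1.47 knockout-labelled, -1.88 control), and Rb1 stood at 2.13 knockout-labelled and 0.84 control. Of 12 tested E-type and A-type cyclins and E2F factors, 0 passed 2-fold in both libraries in Neurog3-high over trunk cells. E2f1 stood at 0.42 knockout-labelled and 1.17 control, and E2f8 at -1.62 knockout-labelled and -0.91 control. Genes of p53 and its targets belong to a pathway known to turn on Cdkn1a and Gadd45a. Of 12 tested in Neurog3-high over trunk cells, 0 were past 2-fold in both libraries in either direction. The median was -0.10 knockout-labelled and 0.09 control. The highest and lowest by mean were Trp53inp1 (0.90 knockout-labelled, 1.5 control) and Phlda3 (0.00 knockout-labelled, -1.29 control). Both passed 2-fold in the control library alone, as did Mdm2 (0.30 knockout-labelled, 1.01 control). Sesn2, a stress-response gene, stood at 0.74 knockout-labelled and 0.97 control. From Neurog3-high to Chga cells, 1 of 10 was higher, Sesn2 (3.78 knockout-labelled, 2.52 control). In the same step 1 was lower, Trp53 (-1.87 knockout-labelled, -1.07 control). The part of p53 in the levels of Cdkn1a and Gadd45a was not tested. Of 6 relatives of the Btg and Gadd45 families 1 was higher, Btg3 (1.04 knockout-labelled, 1.15 control), while Gadd45b stood at -0.56 knockout-labelled and -0.86 control. Of the other kinase inhibitors Cdkn2d and Cdkn3 could be tested. In Chga over Neurog3-high cells Cdkn2d, the p19 gene, stood at 1.19 knockout-labelled and 2.10 control and Cdkn3 at -2.40 knockout-labelled and -1.86 control.

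Of the 5 mitotic genes, 2 were at least 2-fold lower in Neurog3-high than in trunk cells, and 5 were lower in Chga than in Neurog3-high cells, where 2.25% and 6.15% of all genes tested were lower. Of the S phase genes, 19 of 42 were lower at the first of these steps and 17 of 37 at the second. Of the G2/M genes, 4 of 52 were lower at the first step and 35 of 49 at the second. Ccnd1 and Ccnd2 were lower at both.

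Likeness of pattern was taken as Pearson's r of log levels over the 12 sums (6 classes in 2 libraries) among 4676 genes of at least 50 CPM. The sums share libraries and differ in depth, and r is given as a description. Nearest to Cdkn1a were Stard10, Gdpd1 and 2010107G23Rik (r of 0.97 each), and nearest to Gadd45a were Krtap17-1 (0.99), Mpc1 (0.98) and Cdc14b (0.97). Nearest to Btg2 was Cstb (0.99), to Gadd45g Tbc1d16 (0.97), to Ccnd1 Snrpb (0.99) and the replication gene Mcm6 (0.98), to Ccnd2 Rps21 (0.97), to Ccnd3 Tenm4 (0.97), to Cdkn1b Ankrd44 (0.99) and to Cdkn1c Kcnq1ot1 (0.96). Within the 10, Gadd45a and Gadd45g had r of 0.93 and Gadd45a and Btg2 0.89, whereas Cdkn1a and Cdkn1c had -0.65. Ccnd3 went with Cdkn1c (0.95) more than with Ccnd1 (0.49).

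The authors' deposited table lists the genes that set apart each of 7 numbered clusters, as an average natural log fold of a cluster over the other cells. In its cluster 4, led by Pax4, Tubb3 and Insm1, the authors' deposited table gives Gadd45a at 2.24, Cdkn1a at 1.29, Gadd45g at 1.15, Btg2 at 1.08, Ccnd1 at -1.01 and Ccnd2 at -1.06. In cluster 1, whose leading genes include Scg3, Isl1 and Pcsk2, the authors' deposited table gives Ccnd1 at -1.11, Ccnd2 at -1.01, Ccnd3 at -0.29 and Cdkn1b at 0.28. These are the same cells processed by the authors and not an independent measurement. Cdkn2c is not in the rows of that table used here.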

How the data were processed

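Cells were sorted as live and profiled on the 10x 3' platform, per the labels' protocols. The authors deposited raw UMI counts per gene and barcode from Cell Ranger on GRCm38/mm10, per the submitters' processing notes. For its version and the aligner: not given in the sources used here. Per the file headers, the authors' deposited table of cluster markers holds an average natural log fold and p-values over cells. The p-values served only to order each cluster's leading genes, and its columns of cell shares were not used. The natural log base is taken from Seurat 2 and 3, which the submitters' processing notes name. Barcodes were dropped under 500 genes, under 1000 UMIs or above 10% mitochondrial UMIs. Simulated doublets marked 74 knockout-labelled and 122 control barcodes at 0.8% per 1000 barcodes. Cells were clustered with scanpy 1.11.5 (2000 variable genes, 30 components, 15 neighbours, resolution 1) into 20 clusters, and the epithelium again into 12, without the 10 genes described.

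Counts were summed per class and library. Ratios are log2 of CPM + 5, for genes with at least 20 UMIs over the sums compared. A gene was called between stages at 2-fold in both libraries and between libraries at 1.5-fold. Intervals are 95% Poisson, exact binomial or, for ratios, from both counts by the delta method. They cover counting error only. With 1 library per condition, no test was made. Cells were thinned to 3000 UMIs for shares of cells. The floor of a count of 0 is 3 counts. Scaling alternatives used edgeR 4.0.16 (TMM) and median-of-ratios factors. Other alternatives changed filters, doublet calls, clustering, gates, stage limits and the pseudocount. The scripts were tested on simulated data. For Neurog3-high over trunk cells, up to 4 genes of each other list were named, the 2 highest and 2 lowest by mean over libraries. Mdm2 was named besides. The members and lists were chosen with earlier results of these data known. Gene positions are from GENCODE M21, where 27722 of 27998 IDs matched.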

Additional observations from a re-analysis of the deposited data

Results flagged for a closer look

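The log2 ratio of Gadd45g between the library labelled knockout and the control library was 0.594359 in tip cells and -0.638702 in mesenchyme, so the single library pair moved one way in one cell class and the opposite way in the other. The levels were 19.9 against 11.5 CPM in tip cells, from 69 and 40 UMIs, and 36.2 against 59.2 CPM in mesenchyme, from 574 and 995 UMIs. In tip cells 1 knockout-labelled cell held 14 of the 69 UMIs, and the level without that cell was 16.0 CPM. The difference between the classes was not tested, since each condition has 1 library.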

How the results depend on the processing

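The 4 genes higher in Neurog3-high than in trunk cells (Cdkn1a, Gadd45a, Gadd45g and Btg2) were called under each of the 24 alternative settings. The count of lower genes was 2, and 1 with marker gates, with Neurog3 of at least 3 as the high stage, or with tip-like cells staged too, where Ccnd2 missed the limit. The count of gene and class pairs at least 1.5-fold higher in the library labelled knockout was 2. It was 1 with no cell filter, with 2 times the doublet rate, at clustering resolution 0.5, with the 10 genes kept in the clustering, with cell cycle genes also left out of it, with TMM or median-of-ratios scaling, and with a pseudocount of 20. It was 0 with no doublet removal, 4 after thinning to 3000 UMIs, 3 under 6 other settings and 2 under the rest, not always with the same pairs. The count of lower pairs was 6. It was 11 after thinning, 3 with a pseudocount of 20, and between 4 and 9 under the other settings, again with some pairs exchanged. For the ratios, 3 values changed sign: Gadd45g in tip cells was -0.0086 with no doublet removal, Cdkn1c in Chga cells was 0.0099 with marker gates, and Cdkn1a in Chga cells was 0.5081 with Chga of at least 1. The causes were not tested. Of the 90 values and counts followed, 45 were marked as moved with stages set on thinned counts and 32 after thinning to 3000 UMIs. No other setting moved more than 12. Cdkn1c in tip cells lay between 0.34 and 1.15 and past 1.5-fold in 23 of 24 settings, against 12 of 24 for Gadd45g. Depth limits the Chga class most, where 1 library has 21 cells. No paired analysis was possible because each condition has 1 library and no test was made.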
